A study of Mus musculus with 6 samples.

Results

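The genes described here are 10 transcription factors that take part in the choice between blood lineages: Irf8, Gfi1, Gfi1b, Klf4, Spi1, Gata1, Gata2, Runx1, Myb and Myc. They were chosen by name, as the 10 of the 32285 genes in the count tables whose symbol matches this list. Their RNA was followed in single cells of c-Kit-enriched bone marrow from 10-week-old BALB/c mice. All mice were of this strain and age and all marrow was enriched on magnetic beads for c-Kit, the receptor for stem cell factor. Non-tumor-bearing (NTB) mice carried hashtag antibody B0301. Vehicle mice carried the 4T1 mammary tumor, were injected daily with phosphate-buffered saline and were marked with B0302. BRQ mice carried 4T1 and were injected daily with brequinar, an inhibitor of the pyrimidine synthesis enzyme DHODH, and were marked with B0303. Each of 3 pools, run as 1 droplet library, held 1 sample of each group, so there were 3 samples per group and 9 in all. The study describes pooling 3 biological replicates in each group. No source used here names the animals behind a sample, and each sample was taken as 1 mouse, an assumption on which every n, SD and p below rests.

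Lineage choice in the marrow is driven by a small set of transcription factors that favor one fate while holding back another. Spi1 (PU.1) opens myeloid genes and opposes Gata1, which drives red cells, megakaryocytes and, with Gata2, basophils and mast cells. Among myeloid progenitors Irf8 and Klf4 favor monocytes, whereas Gfi1 favors neutrophils and represses monocyte genes. Gfi1b, a close relative of Gfi1, acts in erythroid cells and megakaryocytes. Runx1 is needed for stem cells and for many of their progeny, Myb keeps progenitors immature and dividing, and Myc drives growth and ribosome synthesis.

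On the GRCm38 (mm10) build, Irf8 lies at chr8:120736358-120756694, Gfi1 at chr5:107716657-107726036, Gfi1b at chr2:28609450-28621982, Klf4 at chr4:55527143-55532466 and Spi1 at chr2:91082390-91115756. Gata1 lies at chrX:7959260-7978071, Gata2 at chr6:88193891-88207032, Runx1 at chr16:92601466-92826149, Myb at chr10:21124935-21160984 and Myc at chr15:61985391-61990374. All are protein-coding genes, and UMIs were counted per gene, so isoforms were not told apart.

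The promoters of the members are shown because several of these factors are known to bind one another's genes. RefSeq promoters of GRCm38.p6, each a 300-base window around a transcription start, were at hand for 8 members (12 windows), and Spi1 and Myc had no entry. Each window was searched on both strands for the GATA motif (AGATAA or TGATAA), the PU.1 form of the ETS motif (GAGGAA), the GFI1 core (AATCNNNGC) and the E-box of Myc (CACGTG) and no window held more than 1 match. Of all 32851 mouse promoters, 18.6% held the GATA motif, 28.3% the ETS motif, 10.3% the GFI1 core and 7.15% the E-box. Among the 12 windows the GATA motif was found once, in Gfi1b, and each of the other motifs in 2 windows. The ETS motif was in the Gata1 window and 1 of the Runx1 windows, the GFI1 core in Irf8 and Gata2, and the E-box in Klf4 and another Runx1 window. The windows of Irf8 (chr8:120736108-120736407, plus strand), Gata2 (chr6:88198414-88198713, plus strand), Gata1 (chrX:7967861-7968160, minus strand) and Gfi1b (chr2:28621933-28622232, minus strand) follow, each 5′ to 3′ on the strand of the gene. They are 4 of the 7 windows with a match, shown because they join Gata, Gfi1 and Spi1 factors, and the Gata1 and Gata2 windows are at starts inside the span of the gene. Capitals mark the motif, which in Irf8 and Gata2 reads on the opposite strand.
Irf8: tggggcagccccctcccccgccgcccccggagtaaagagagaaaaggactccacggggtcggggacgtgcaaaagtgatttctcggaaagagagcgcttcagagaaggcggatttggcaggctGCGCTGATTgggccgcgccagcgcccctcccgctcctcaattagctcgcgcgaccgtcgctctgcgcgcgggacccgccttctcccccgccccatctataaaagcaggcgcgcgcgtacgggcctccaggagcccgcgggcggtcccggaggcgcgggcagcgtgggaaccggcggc
Gata2: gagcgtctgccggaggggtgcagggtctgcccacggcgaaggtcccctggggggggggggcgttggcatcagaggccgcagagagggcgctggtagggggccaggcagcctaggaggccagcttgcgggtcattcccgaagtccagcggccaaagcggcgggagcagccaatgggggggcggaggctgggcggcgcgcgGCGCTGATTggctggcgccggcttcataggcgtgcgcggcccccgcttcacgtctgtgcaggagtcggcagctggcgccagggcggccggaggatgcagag
Gata1: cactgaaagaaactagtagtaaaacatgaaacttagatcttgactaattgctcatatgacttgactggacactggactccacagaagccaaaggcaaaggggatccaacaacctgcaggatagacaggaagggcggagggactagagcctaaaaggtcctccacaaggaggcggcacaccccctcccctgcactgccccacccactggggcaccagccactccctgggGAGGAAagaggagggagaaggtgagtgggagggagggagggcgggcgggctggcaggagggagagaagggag
Gfi1b: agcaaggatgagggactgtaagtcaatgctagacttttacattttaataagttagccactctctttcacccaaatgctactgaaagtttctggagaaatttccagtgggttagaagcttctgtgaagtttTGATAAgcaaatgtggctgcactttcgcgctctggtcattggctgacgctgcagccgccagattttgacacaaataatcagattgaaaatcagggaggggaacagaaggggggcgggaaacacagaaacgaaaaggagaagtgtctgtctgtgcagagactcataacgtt
A match of letters does not show that a factor was bound, and no binding was measured in these cells.

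Cells were given to mice by their hashtag, and singlets numbered 382 to 2780 per mouse. The 3 pools held 11441 to 14297 barcodes and 100700982 to 135564079 gene unique molecular identifiers (UMIs), and pairs of pools shared 38 to 48 barcode sequences. The 3916 granulocyte-monocyte progenitors (GMPs) were gated on Ms4a3, with a normalized value of ln(1 + UMIs per 10000) over 3. The other classes were clusters named from marker genes, which should be read as stem and multipotent progenitor (HSC/MPP)-like, neutrophil-like, monocyte-like, basophil- or mast-like and erythroid-like cells, since only RNA was measured. The members were left out of the genes used for clustering and naming. Every list of a class's own markers was detected in full in that class in each group, except that vehicle mice had 9 or 10 of 10 HSC/MPP markers. Vehicle neutrophils were shallow, with medians of 1552 to 1858 UMIs per cell and mouse against 5419 to 6230 in NTB mice and 2594 to 3148 in BRQ mice, while GMP medians ran from 10828.5 to 17966.

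The first question was where in the c-Kit-enriched marrow each factor was found. Levels are given as CPM, a gene's share of the UMIs of all cells of that class in 1 mouse on the usual counts-per-million scale, as mean ± SD over the mice of all groups with at least 10 such cells. There were 9 such mice in each class except 8 in erythroid cells and 6 in basophils. The classes were made from the same cells, so these levels are a description and carry no test. Orders are given among these 6 classes alone, and some other clusters held more. Neutrophil genes alone made up 253267 to 426270 CPM of the neutrophil class, which lowers the share of every other gene there. CPM were compared between classes for 1 gene and never between genes.

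Of the monocyte factors, Irf8 stood at 708 ± 108 CPM in monocyte-like cells (lowest mouse 492, highest 827), against 53.8 ± 17.5 in HSC/MPP, the next of the 6 classes, and 4.95 ± 2.10 in GMPs, the lowest of them. Outside the 6, macrophage-like cells held 363 ± 149 CPM of Irf8 (137 to 556 over 7 mice), which overlapped the monocytes. Klf4 stood at 72.5 ± 17.3 CPM in monocytes and at most at 3.00 ± 3.27 in any other of the 6 classes. In both genes the lowest monocyte mouse lay above the highest mouse of each of the other 5 classes, and those 5 classes of Klf4 did not differ beyond their spread. The low Irf8 in GMPs depended on the gate, because cells of the GMP clusters at or under the Ms4a3 limit held 29.7 CPM.

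Of the granulocyte factors, Gfi1 was highest of the 6 classes in GMPs at 162 ± 18.6 CPM (125 to 196 over the mice), followed by neutrophils at 41.2 ± 11.8, whose mice did not reach the range of the GMPs. Outside the 6, eosinophil-like cells held more Gfi1 (272 ± 110 CPM, 110 to 449 over 7 mice). Below neutrophils, neighbouring classes overlapped, down to 19.6 ± 9.59 CPM in erythroid cells. Spi1 was highest in neutrophils at 393 ± 139 CPM (227 to 593). GMPs at 167 ± 16.9 CPM and monocytes at 156 ± 10.0 came next and did not differ beyond their spread. HSC/MPP held 88.3 ± 16.3 CPM of Spi1, basophils 63.4 ± 27.8 and erythroid cells 34.2 ± 11.9, so Spi1 RNA was counted in each of the 6 classes. In the erythroid cluster 11.65% of barcodes were marked as doublets by Scrublet. They were kept, and their part in this value was not tested.

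The erythroid, megakaryocytic and mast cell factors separated from the myeloid classes. Gata1 reached 162 ± 18.3 CPM in erythroid cells (131 to 184) and 60.1 ± 25.1 in basophils, with mice of the 2 classes apart, and 5.77 ± 4.76 CPM in HSC/MPP. In GMPs it was near the limit of detection, with 40 UMIs over 9 mice and 0.825 ± 0.634 CPM. Gfi1b followed the same order with 113 ± 19.8 CPM in erythroid cells, 22.3 ± 12.8 in basophils and 19.1 ± 6.78 in HSC/MPP, of which the last 2 overlapped. Gata2 had another order, with 649 ± 137 CPM in basophils (519 to 841), 89.5 ± 24.5 in HSC/MPP and 33.9 ± 13.5 in erythroid cells. It fell to 1.31 ± 0.918 CPM in GMPs.

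The 3 widely used factors differed in their order. Runx1 was highest in basophils at 436 ± 49.5 CPM (392 to 530), then in HSC/MPP at 175 ± 22.4 and monocytes at 149 ± 11.3, and between 57.8 and 66.2 CPM in GMPs, erythroid cells and neutrophils, which did not differ beyond their spread. Myb ran from 809 ± 132 CPM in basophils through GMPs (718 ± 174), HSC/MPP (617 ± 63.7) and erythroid cells (526 ± 106) to monocytes (432 ± 98.6), with each class within 1 SD of the next. Of the 6 classes neutrophils alone stood apart, at 90.5 ± 12.8 CPM of Myb. Myc was highest in HSC/MPP at 195 ± 20.6 CPM (169 to 233), where every mouse exceeded the mice of the next class, erythroid cells at 117 CPM (89.9 to 156). Of the 6 classes it was lowest in neutrophils at 8.11 ± 4.25 CPM.

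**Figure D1:**
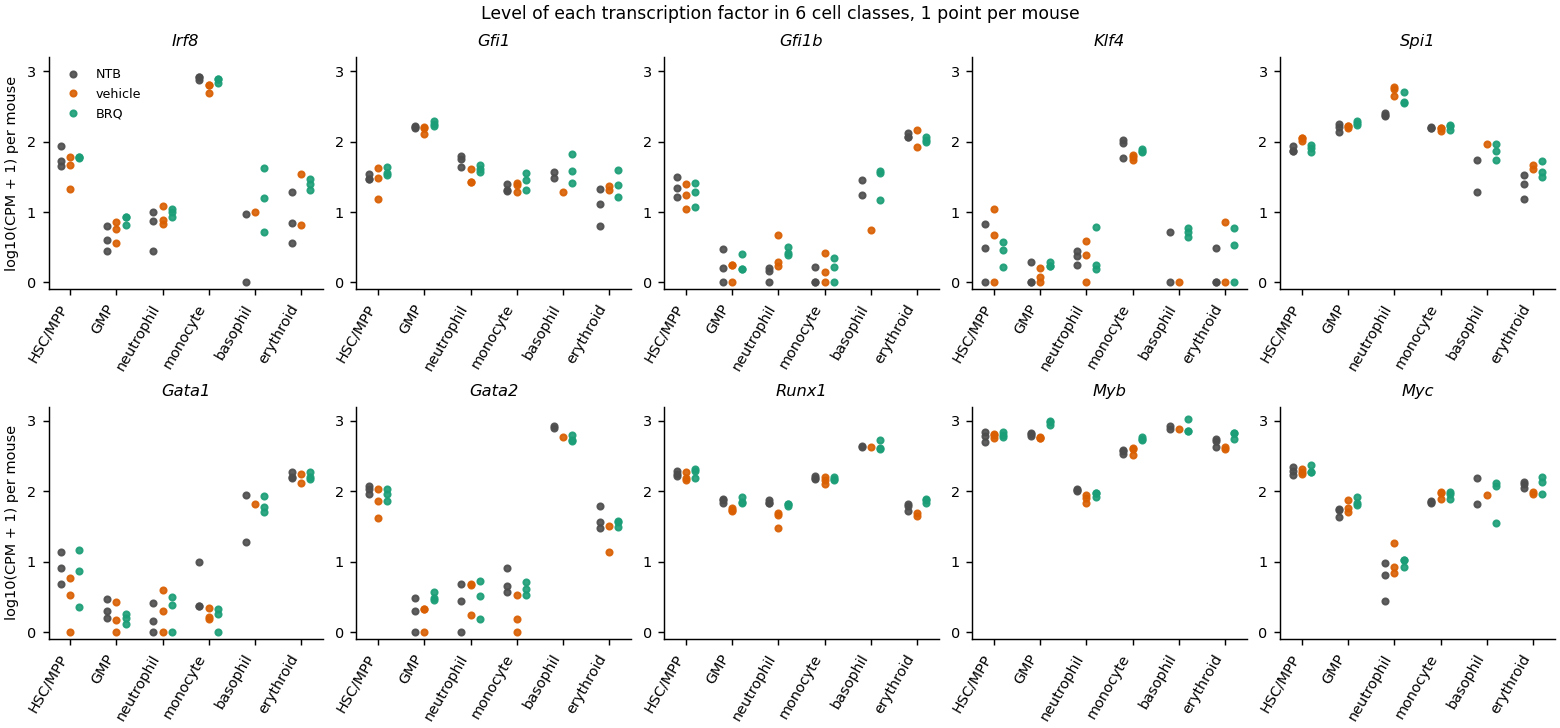
Level of the 10 factors in 6 cell classes, 1 panel per gene; the vertical axis is log10(CPM + 1) of the UMIs summed over the cells of a class in 1 mouse, and each point is 1 mouse colored by group. Irf8 and Klf4 points stand far above the rest in monocytes, Gata1 and Gfi1b in erythroid cells and Gata2 in basophils, while Myb points are low only in neutrophils.

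The share of cells with at least 1 UMI was compared after every cell was thinned to 2000 UMIs. Irf8 was then seen in 71.5% of monocytes and 0.889% of GMPs (98.0% and 4.97% without thinning). Gata1 was seen in 27.8% of erythroid cells and 0.188% of GMPs (86.0% and 1.17% without thinning), classes whose mice had median depths of 14817 to 21316.5 and 10828.5 to 17966 UMIs. Whether the Gata1 share of GMPs is background was not tested. Spi1 was found in 50.1% of thinned neutrophils, 28.5% of GMPs and 6.97% of erythroid cells, beside 3.39% of megakaryocyte-like cells and 8.53% of B cells. Thinning left out 580 of 978 vehicle neutrophils but 16 of 1401 vehicle GMPs.

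For each member, the 3 genes whose mean log2(CPM + 1) over 12 classes was most like it were taken from 9153 genes, with Pearson r as a description over classes that share libraries. Irf8 was most like Ly86 (r = 0.958), Pip4p1 and Usf1, and Klf4 like Itga1 (r = 0.923), the chemokine receptor gene Ccr2 and Apba1. Gfi1 was most like Neu1 (r = 0.931), Prss57 and B4galt6, and Spi1 like the hexokinase gene Hk3 (r = 0.964), Fgd4 and Abcd2. Gfi1b was most like Zfpm1 (r = 0.977), which encodes the Gata1 cofactor FOG-1, Samd14 and Sept8. Gata1 was most like Icam4 (r = 0.951), Samd14 and Mfsd2b, and Gata2 like Slc18a2 (r = 0.976), Slc22a3 and Tgfbr3. Runx1 followed Ptprs (r = 0.94), Brd1 and Arid1b, Myb followed Ptpn7 (r = 0.958), Fam216a and Zgrf1, and Myc followed Ppie (r = 0.985), Noc3l and Rab26os. Among the members, the closest pairs over the 12 classes were Gfi1b and Gata1 (r = 0.897) and Myb and Myc (r = 0.876), and Spi1 ran opposite to Gata1 (r = -0.689).

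The second question was whether the 4T1 tumor and BRQ changed these factors within a class. Counts per mouse and class were compared with edgeR's quasi-likelihood test over all 9 mice, with Benjamini-Hochberg adjustment over every gene in the fit, and adjusted p under 0.05 was the limit for a call. Values per mouse below are scaled CPM, the same scale on library sizes after trimmed-mean (TMM) scaling, in the order of pools 1, 2 and 3. The scaling matters for BRQ, since by plain CPM the median gene of GMPs was 0.18 higher (log2) in BRQ than in vehicle mice and 0.16 higher than in NTB mice. Low counts left 7 members testable in GMPs, 6 in neutrophils, 7 in monocytes, 8 in HSC/MPP, 9 in erythroid cells and 7 in basophils. The p-values rest on 1 estimate of the spread between mice, shared by the 3 groups of a class and moderated over genes. The comparisons share their groups, so that a low vehicle value enters both of the comparisons with vehicle.

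Between vehicle and NTB mice, 7 of 37 member and class combinations were called (18.9%, against 8.7% of all gene tests in these classes), 1 higher and 6 lower in vehicle. Between BRQ and vehicle mice 2 of 37 were called, both higher (5.41%, against 4%), and between BRQ and NTB mice 3 of 44, all higher (6.82%, against 4.56%). The calls fell on Myb, Spi1, Gfi1, Runx1, Irf8 and Klf4, and on GMPs, neutrophils and monocytes.

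**Figure D2:**
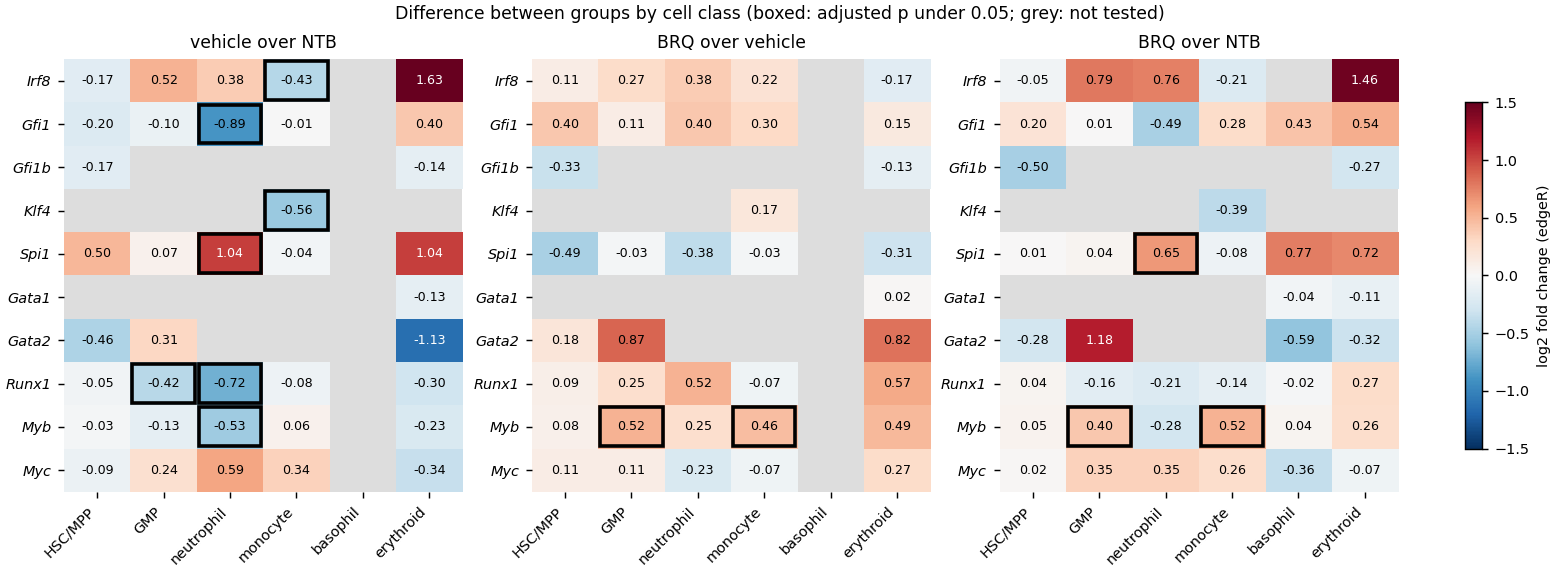
Fitted log2 fold change of each factor (rows) in each class (columns) for vehicle over NTB, BRQ over vehicle and BRQ over NTB; red is higher and blue lower in the first group, colors end at 1.5, boxed cells passed an adjusted p of 0.05 and grey cells were not tested. The vehicle over NTB panel holds 7 boxes, 4 of them in neutrophils, and the boxes of the BRQ over vehicle panel are Myb in GMPs and monocytes.

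Myb, which keeps progenitors immature, was higher in GMPs and monocytes of BRQ mice than in those of both other groups. In GMPs its scaled CPM were 649.7, 680.7, 647.5 (NTB), 610.4, 619.9, 584.8 (vehicle) and 842.9, 911.3, 853.2 (BRQ). Every BRQ mouse lay above every other mouse. BRQ-GMPs held 869 ± 36.9 scaled CPM against 605 ± 18.2 in Veh-GMPs (SD, n = 3), a log2 fold change of 0.52 ± 0.08 (SE; 1.44-fold, adjusted p = 0.000146), and 0.40 ± 0.08 against 659 ± 18.5 in NTB-GMPs (1.32-fold, adjusted p = 0.00505). Of 7 members tested, 1 was higher and 0 lower in each of these comparisons, against 13.4% of all genes called for BRQ over vehicle (6.08% higher, 7.37% lower) and 6.01% for BRQ over NTB (2.56% higher, 3.46% lower). Mice of the groups did not overlap for 3 members in each comparison, against 30.7% and 25.9% of all genes. By plain CPM the log2 ratios of Myb were 0.71 and 0.57. Both calls held whichever mouse was left out. They were lost when the limits of 500 and 7500 were read as UMIs per cell, with log2 fold changes of 0.27 (adjusted p = 0.9998) and 0.22 (adjusted p = 0.9455).

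GMPs of the groups were spread differently over 3 clusters, led by Ctsg and Nkg7 (cluster 0), Fkbp11 (cluster 2) and Fcnb (cluster 3), and cluster 0 held 49.7% to 68.2% of GMPs in NTB, 57.9% to 60.9% in vehicle and 14.4% to 49.2% in BRQ mice. Within cluster 0 Myb rose by 0.57 ± 0.09 (log2, BRQ over vehicle, adjusted p = 2.83e-05, against 10.2% of genes called) and within cluster 3 by 1.18 ± 0.13 (adjusted p = 2.34e-07, 5.45% called). In cluster 2 the difference was 0.31 ± 0.10 and was not called (adjusted p = 0.0648). Against NTB mice, Myb rose in cluster 3 by 0.74 ± 0.13 (adjusted p = 0.00266, 1.88% called), while cluster 0 gave 0.28 ± 0.09 (adjusted p = 0.103) and cluster 2 had too few NTB cells. In cluster 0 Myb was also lower in vehicle than in NTB mice by a log2 fold change of -0.29 ± 0.09 (adjusted p = 0.0494, 8.11% called), which in all GMPs was -0.13 ± 0.08 (adjusted p = 0.373). Summed markers of the GMP class in GMPs ran from 32576 to 41186 CPM in BRQ and from 39924 to 41077 in vehicle mice, and those of HSC/MPP from 71.9 to 148 and from 70.5 to 120. Of 14 marker lists, 3 did not overlap between BRQ and vehicle GMPs and 5 between BRQ and NTB GMPs. Summed basophil and mast cell markers ran from 179 to 197 CPM in BRQ, 82.4 to 107.5 in vehicle and 121 to 157 in NTB mice, of which the histidine decarboxylase gene Hdc gave 149 to 162, 60.2 to 69.7 and 108 to 135.5. Of the other basophil markers Mcpt8 ran from 22.9 to 33.3 CPM in BRQ and 19.3 to 42.2 in vehicle mice, which overlapped, and from 9.0 to 19.4 in NTB mice, below all BRQ mice. Ms4a2, a chain of the IgE receptor, did not overlap between BRQ (3.3 to 5.9 CPM) and vehicle mice (1.7 to 1.8) but did with NTB mice (1.2 to 4.0). The mast cell protease gene Cpa3 did not overlap either, at 0.3 to 1.1 CPM in BRQ, 0.0 to 0.2 in vehicle and 0 in NTB mice, and Prss34 ran from 0.6 to 1.0 CPM in BRQ and from 0.0 to 0.6 in both other groups. Fcer1a, Cd200r3 and Cyp11a1 had 0 UMIs in NTB mice and at most 3 in either other group. Summed monocyte markers ran from 93.7 to 143 CPM in BRQ, 52.0 to 62.3 in vehicle and 52.1 to 65.3 in NTB mice, mostly from F13a1. Macrophage markers (65.3 to 196 against 272 to 311) and neutrophil markers (26884 to 38215 against 47238 to 50670) were lower in BRQ than in NTB mice, and the other lists that did not overlap held at most 0.5 CPM. Of the macrophage sum, Vcam1 alone gave 58.5 to 189 CPM in BRQ and 268 to 277.5 in NTB mice. Vcam1 is also among the leading genes of GMP clusters 0 and 3. The part of these markers in the Myb difference was not tested.

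In monocytes Myb stood at 356.8, 375.5, 379.4 scaled CPM (NTB), 349.9, 421.1, 400.9 (vehicle) and 531.6, 521.8, 543.0 (BRQ). The BRQ mice again lay above all others. The log2 fold change was 0.46 ± 0.09 over vehicle (532 ± 10.6 against 391 ± 36.7 scaled CPM, adjusted p = 0.00499) and 0.52 ± 0.10 over NTB (371 ± 12.1, adjusted p = 0.00297), each the only call among 7 members tested. Of all genes 4.32% were called over vehicle (1.78% higher, 2.54% lower) and 2.75% over NTB (1.29% higher, 1.46% lower). Mice did not overlap for 2 members over vehicle and 3 over NTB, against 22.5% and 19.9% of all genes. The call over vehicle was lost without the vehicle mouse of pool 1 (0.38, adjusted p = 0.0531). In this class too basophil and mast cell markers moved with Myb, with 70.3 to 75.1 CPM in BRQ, 30.7 to 47.9 in vehicle and 37.9 to 51.3 in NTB mice. Hdc gave 43.9 to 56.1, 18.4 to 23.4 and 24.1 to 37.2 of these, Mcpt8 overlapped between all groups (9.6 to 23.6 over all mice), and no other marker of the list passed 1.9 CPM. GMP markers were higher in BRQ (18852 to 21445) than in vehicle mice (16694 to 18696). Summed HSC/MPP markers in monocytes were higher in BRQ (190 to 444 CPM) than in NTB mice (58.4 to 125), of which Ifitm1 gave 142 to 387 and 30.1 to 64.7. Of 14 lists 3 did not overlap over vehicle, with macrophage markers at 13.4 to 16.2 against 7.6 to 11.4 CPM as the third, and 2 over NTB, and their part was not tested.

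Elsewhere Myb was not called between BRQ and vehicle mice. In HSC/MPP the difference was 0.08 ± 0.11 (log2, 95% interval -0.14 to 0.29), with overlapping mice. In erythroid cells it was 0.49 ± 0.14 and the BRQ mice (555.0, 651.2 and 633.9 scaled CPM) lay above both vehicle mice (435.9 and 434.0) and all NTB mice (458.7 to 538.5). The adjusted p over vehicle was 0.633 in a fit that called 0% of its genes. In neutrophils it was 0.25 ± 0.16 (adjusted p = 0.501), though BRQ mice (84.2 to 94.8 scaled CPM) and vehicle mice (71.4 to 82.9) did not overlap. Neutrophil Myb was lower in vehicle than in NTB mice, as described with the other neutrophil genes.

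**Figure D3:**
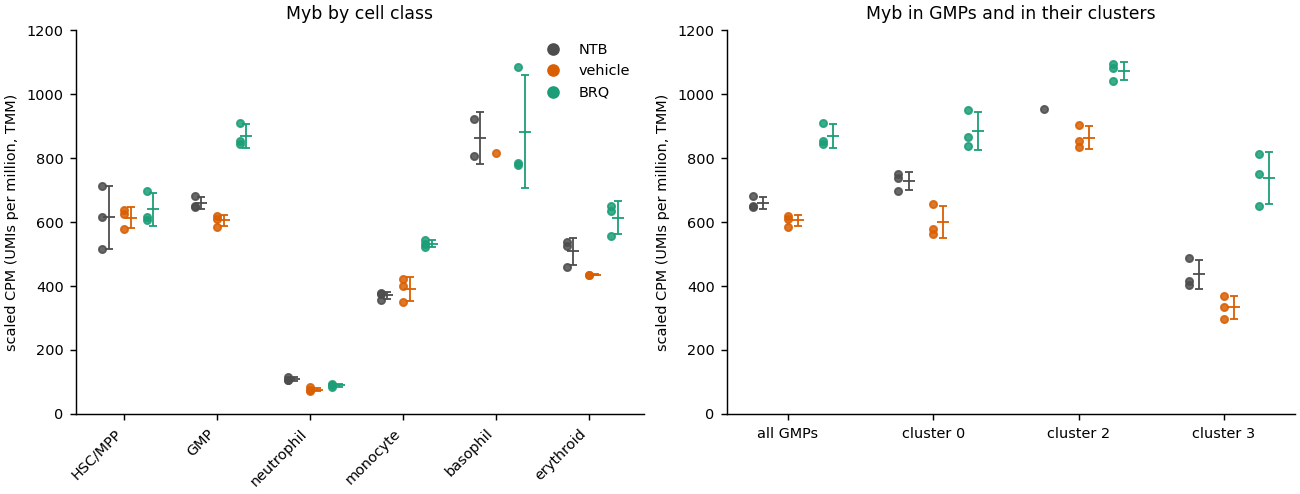
Scaled CPM of Myb per mouse, by cell class (left) and in all GMPs and the 3 GMP clusters (right); points are mice colored by group, and bars are mean and SD where a group has at least 2 mice. In GMPs, in monocytes, in erythroid cells (not called) and in GMP clusters 0 and 3 all 3 BRQ mice lie above all vehicle and NTB mice.

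Myc itself was not called in any of the 6 classes. In GMPs it stood at 58.9, 43.3, 52.5 scaled CPM (NTB), 60.7, 75.8, 50.7 (vehicle) and 59.8, 64.2, 70.5 (BRQ). The BRQ and NTB mice did not overlap, and the log2 fold change was 0.35 ± 0.14 (adjusted p = 0.13). It was called without the filter on low counts (0.39, adjusted p = 0.04005) and at an Ms4a3 limit of 2.5 (0.35, adjusted p = 0.0469). Vehicle over NTB gave 0.24 ± 0.14 in GMPs (adjusted p = 0.301) and 0.34 ± 0.14 in monocytes (adjusted p = 0.194). Within GMP cluster 3, BRQ mice held 51.0, 55.5 and 58.5 scaled CPM of Myc and vehicle mice 26.2, 50.2 and 17.0, a rise of 1.07 ± 0.23 (log2, adjusted p = 0.00376) in which the mice did not overlap.

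Genes that Myc is known to activate were counted beside Myc. Of 20 such genes tested in GMPs, 17 were higher and 0 lower in vehicle than in NTB mice, with a median log2 fold change of 0.60 against -0.01 for all 10331 genes tested, of which 11.3% were called. The mitochondrial chaperone gene Hspd1 rose from 215 ± 7.2 to 446 ± 30.5 scaled CPM (log2 1.05 ± 0.11, adjusted p = 3.79e-06) and the spermidine synthase gene Srm from 79.4 ± 4.1 to 155 ± 19.4 (0.94 ± 0.13). At the lower end of the called genes were the ribosome assembly gene Rrs1 (0.41 ± 0.13) and the nucleolar methylase gene Fbl (0.39 ± 0.10). BRQ mice held less of 8 of the 20 than vehicle mice and more of 0 (median -0.18, where 13.4% of all genes were called), with Npm1 at -0.54 ± 0.09 and Nme2 at -0.51 ± 0.11. They held more of 8 and less of 0 than NTB mice (median 0.30, where 6.01% of all genes were called), with Hspd1 at 0.76 ± 0.11 and Hspe1, the partner of Hspd1, at 0.59 ± 0.10, and Ldha (0.40 ± 0.10) and Nme1 (0.34 ± 0.08) as the smallest called. In monocytes 11 of the 20 were higher and 1 lower in vehicle than in NTB mice (2.38% of all genes called), and 7 were lower and 0 higher in BRQ than in vehicle mice (4.32% called). Marker lists of other cell types moved in the same cells. In GMPs summed neutrophil markers were lower in vehicle (34012 to 37752 CPM) and in BRQ mice (26884 to 38215) than in NTB mice (47238 to 50670), as 1 of 4 lists out of 14 without overlap between vehicle and NTB mice. In monocytes HSC/MPP markers were higher in vehicle (266 to 429 CPM) than in NTB mice (58.4 to 125). Between BRQ and vehicle mice, monocyte markers (93.7 to 143 against 52.0 to 62.3 CPM) and basophil and mast cell markers (179 to 197 against 82.4 to 107.5) were higher in BRQ GMPs. In BRQ monocytes those of GMPs (18852 to 21445 against 16694 to 18696), basophils (70.3 to 75.1 against 30.7 to 47.9) and macrophages (13.4 to 16.2 against 7.6 to 11.4) were higher than in vehicle monocytes. Their part in the counts of Myc targets was not tested.

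Among the 10 members, the called difference between tumor-bearing and NTB mice with the largest fold was that of Spi1 in neutrophils. Its scaled CPM were 253.4, 272.9, 235.1 (NTB), 472.9, 556.3, 536.6 (vehicle) and 366.6, 361.0, 468.0 (BRQ). The 3 groups did not overlap, with BRQ mice in the middle. Vehicle neutrophils held 522 ± 43.6 against 254 ± 18.9 scaled CPM (log2 1.04 ± 0.17, 2.05-fold, adjusted p = 0.000438), a call kept whichever mouse was left out. BRQ neutrophils held 399 ± 60.2, which was higher than in NTB mice by 0.65 ± 0.16 (adjusted p = 0.0143) and not called against vehicle (-0.38 ± 0.16, adjusted p = 0.333). Without the NTB mouse of pool 3 the call over NTB was lost (0.59, adjusted p = 0.0998).

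In neutrophils, 4 of 6 members tested were called between vehicle and NTB mice, 1 higher and 3 lower, against 30.7% of all genes (16.9% higher, 13.8% lower). DESeq2 called 3 of them and not Myb (adjusted p = 0.075). Besides Spi1 these were Gfi1, Myb and Runx1, all lower in vehicle. Gfi1, which favors the granulocyte fate, stood at 47.5, 58.7, 59.97 scaled CPM (NTB) and 26.9, 24.2, 37.7 (vehicle) (log2 -0.89 ± 0.22, adjusted p = 0.00719), and BRQ mice stood at 40.7, 46.7 and 34.3, below the NTB mice and overlapping the vehicle mice, called against neither. Runx1 stood at 75.2, 77.3, 66.7 (NTB), 51.4, 27.6, 43.2 (vehicle) and 64.6, 62.7, 61.0 (BRQ) (vehicle over NTB -0.72 ± 0.20, adjusted p = 0.0133). Myb stood at 116.8, 105.0, 105.8 (NTB) and 71.4, 82.9, 74.4 (vehicle) (-0.53 ± 0.16, adjusted p = 0.0228). Vehicle and NTB mice did not overlap for any of these 4 genes, as for 47.3% of all genes in this class. Spi1 was the 1 member called between BRQ and NTB mice, against 16.5% of genes (12.2% higher, 4.35% lower), and 4 members did not overlap there, against 39.2%. With the limits read as UMIs, Gfi1 (-0.73 ± 0.23, adjusted p = 0.0176), Irf8 (1.12 ± 0.42, adjusted p = 0.0407) and Myb (-0.42 ± 0.16, adjusted p = 0.0385) were also called there. Between BRQ and vehicle mice 0 were called, against 0.115% of genes (0.0898% higher, 0.0257% lower), with 2 at an unadjusted p under 0.05 and 0 by DESeq2, and 3 did not overlap, against 14.5%. For Runx1 the call was lost on omitting the pool 2 NTB mouse (adjusted p = 0.0537) or the pool 3 vehicle mouse (adjusted p = 0.0651), and with tag ratios (-0.31, adjusted p = 0.197). The Myb call was lost when any NTB mouse, or the vehicle mouse from pool 1 or from pool 3, was omitted (adjusted p 0.0564 to 0.0908), and without a filter on low counts (-0.57, adjusted p = 0.0503).

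The neutrophil class was made of different cells in the groups. Cluster 4, led by the granule genes Chil3, Ltf, Camp and Ngp, held 59.7% to 65.9% of neutrophils in NTB mice and 3.76% to 12.9% in vehicle mice. Cluster 1, led by Wfdc17, Il1b, Cstdc4 and with Cxcr2 among its top genes, held 4.93% to 9.04% in NTB, 67.5% to 87.4% in vehicle and 41.2% to 76.1% in BRQ mice, and cluster 6 was led by Ifitm6, Ly6g, Mmp8 and Mmp9. Spi1 differed between the clusters themselves, with 601.9 to 791.8 CPM, scaled within each cluster, over the mice of all groups in cluster 1 and 206.1 to 335.5 in cluster 4.

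Tested within clusters 4 and 6, the Spi1 and Runx1 differences were smaller than in the class. Those of Gfi1 and Myb lay within 1 SE of the class values. Spi1 in vehicle over NTB mice gave 0.17 ± 0.19 in cluster 1 and 0.18 ± 0.17 in cluster 4, not called, though the mice of cluster 4 did not overlap, and 0.59 ± 0.17 in cluster 6 (adjusted p = 0.0483, against 2.87% of genes called). Gfi1 gave -0.82 ± 0.30 in cluster 4 and -0.78 ± 0.36 in cluster 6, not called, and 0.37 ± 0.98 in cluster 1. Vehicle mice had few such cells, 52, 10 and 17 in cluster 4 (17, 1 and 4 UMIs of Gfi1) and 79, 10 and 40 in cluster 6. All vehicle values of these 2 clusters, those of Spi1 included, rest on them. Runx1 and Myb were called in none of the 3 clusters, with -0.27 and -0.41 in cluster 4 and -0.22 and -0.50 in cluster 6. In cluster 1 they gave 1.21 ± 0.89 and 1.27 ± 0.61, from 2 NTB mice with 1 UMI each of Runx1, 1 and 3 of Myb and 3 and 0 of Gfi1, too few to read a direction. Over NTB mice, Spi1 in BRQ mice gave -0.01 in cluster 1, 0.09 in cluster 4 and 0.28 in cluster 6, none called. Summed HSC/MPP markers in neutrophils ran from 49.6 to 224 CPM in NTB mice (4 to 9 of 10 with a UMI) and from 2972 to 6644 in vehicle mice (5 to 9 of 10), of which Ifitm1 gave 2765 to 6267. Of 14 marker lists 7 did not overlap between vehicle and NTB neutrophils and 8 between BRQ and NTB. Higher in vehicle than in NTB mice were also summed markers of GMPs (2152 to 2431 against 1321 to 1549 CPM), basophils (281 to 481 against 106 to 132) and monocytes (70.9 to 135 against 16.0 to 21.6). Single genes gave most of 2 of these sums, Hdc in the basophil list (277 to 466 against 103 to 125) and Csf1r, the M-CSF receptor gene, in the monocyte list (49.2 to 101 against 1.8 to 7.2). Ccr2 of the monocyte list did not overlap either (5.8 to 14.7 against 1.8 to 3.3), while Mcpt8, Ms4a2, Ms4a6c and Ly86 overlapped. Lower in vehicle mice were those of neutrophils (263708 to 348402 against 394031 to 426270), macrophages and eosinophils. Their part in these results was not tested.

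**Figure D4:**
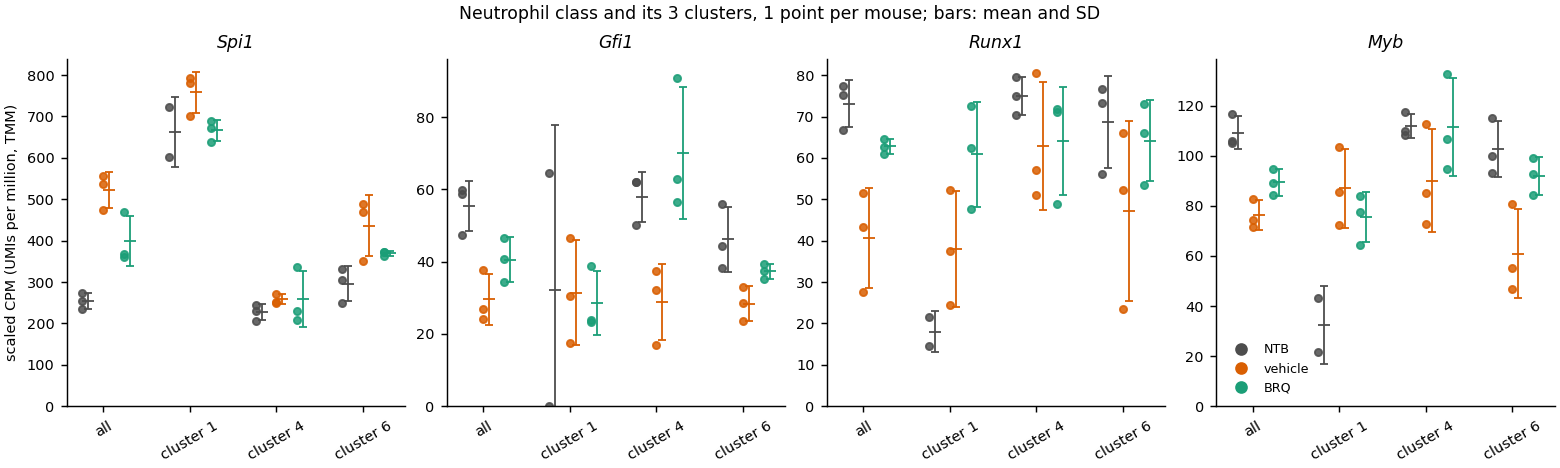
Scaled CPM of Spi1, Gfi1, Runx1 and Myb in all neutrophils and in neutrophil clusters 1, 4 and 6; points are mice colored by group, and bars are mean and SD. Over all neutrophils the vehicle mice lie above the NTB mice for Spi1 and below them for the other 3 genes, and within cluster 4 the Spi1 points of vehicle mice (249.5 to 271.9) still lie above those of NTB mice (206.1 to 244.5), by less.

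In GMPs Spi1 and Gfi1 were called in no comparison. Spi1 stood between 148.3 and 179.8 scaled CPM in all 9 mice, and its log2 fold changes were 0.07 ± 0.09 (vehicle over NTB, 95% interval -0.11 to 0.24), -0.03 ± 0.08 (BRQ over vehicle) and 0.04 ± 0.09 (BRQ over NTB). Gfi1 stood between 135.5 and 178.8, with -0.10 ± 0.10, 0.11 ± 0.09 and 0.01 ± 0.09. In HSC/MPP the vehicle mice held 114.7, 97.9 and 112.5 scaled CPM of Spi1 against 75.3, 74.6, 84.6 (NTB) and 74.0, 88.4, 80.0 (BRQ). The vehicle mice lay above all others, but neither difference was called (0.50 ± 0.16, adjusted p = 0.129, and BRQ over vehicle -0.49 ± 0.15, adjusted p = 0.762). In this class 0 members were called in any comparison, against 1.12% of genes for vehicle over NTB (0.683% higher, 0.441% lower), 0.021% for BRQ over vehicle (all lower) and 0.904% for BRQ over NTB (0.431% higher, 0.473% lower). Spi1 was the 1 member whose mice did not overlap in the comparisons with vehicle, against 14.5% and 10.1% of genes, and 0 did so for BRQ over NTB, against 15.9%. At an unadjusted p under 0.05 there were 2, 1 and 0 members, and DESeq2 called 0. The vehicle mouse of pool 2 had 10 such cells.

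Genes activated by PU.1 were counted beside Spi1. Of 15 tested in GMPs, 7 were lower and 1 higher in vehicle than in NTB mice (median log2 fold change -0.28), 8 higher and 0 lower in BRQ than in vehicle mice (median 0.30), and 1 higher and 3 lower in BRQ than in NTB mice (median -0.01). Of all genes tested in GMPs 11.3%, 13.4% and 6.01% were called in these comparisons (6.63%, 6.08% and 2.56% higher, 4.68%, 7.37% and 3.46% lower), with medians of -0.01, 0.00 and 0.00. The lysozyme gene Lyz2 fell in vehicle mice from 323 ± 48.9 to 116 ± 61.0 scaled CPM (-1.36 ± 0.22, adjusted p = 0.000322) and the integrin gene Itgam from 83.7 ± 12.3 to 42.4 ± 1.5 (-0.97 ± 0.11). Csf2rb, a receptor chain for GM-CSF, was the one that rose (0.97 ± 0.26). The Fc receptor gene Fcgr3 rose from 37.6 ± 1.1 in vehicle to 76.1 ± 4.4 in BRQ mice (1.03 ± 0.10, adjusted p = 1.92e-07), and Cd68 (0.92 ± 0.30), Cybb (0.36 ± 0.11) and Laptm5 (0.30 ± 0.08) rose with it. The 3 that were lower in BRQ than in NTB mice were Itgb2 (-0.58 ± 0.12), Csf2ra (-0.50 ± 0.10) and Coro1a (-0.29 ± 0.09). Lyz2 is also among the leading genes of neutrophil cluster 4, and summed neutrophil markers in GMPs ran from 47238 to 50670 CPM in NTB, 34012 to 37752 in vehicle and 26884 to 38215 in BRQ mice. Between BRQ and vehicle GMPs the neutrophil markers overlapped, whereas monocyte markers (93.7 to 143 against 52.0 to 62.3 CPM) and basophil and mast cell markers (179 to 197 against 82.4 to 107.5) were higher in BRQ mice without overlap. The part of these markers in the counts was not tested. In neutrophils 8 of 15 such genes were higher and 2 lower in vehicle than in NTB mice (median 0.66, 30.7% of all genes called). There 7 were higher and 0 lower in BRQ than in NTB mice (median 0.29, 16.5% called). Between BRQ and vehicle neutrophils 0 were called (median -0.21, 0.115% of genes called). Medians of all genes there were -0.07, -0.04 and 0.01. Neutrophil clusters were shared unequally between the groups, and their part was not tested.

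Runx1 was the member lowered in GMPs of vehicle mice. Its scaled CPM were 73.0, 76.5, 75.6 (NTB), 56.6, 53.3, 57.9 (vehicle) and 66.5, 63.1, 71.9 (BRQ). The 3 groups did not overlap, with BRQ mice in the middle. Veh-GMPs held 55.9 ± 2.37 against 75.1 ± 1.81 scaled CPM in NTB-GMPs (log2 -0.42 ± 0.10, adjusted p = 0.0117), the only call among 7 members, against 11.3% of all genes (6.63% higher, 4.68% lower). Of the members 2 did not overlap between these groups, against 28.4% of all genes. The call was lost on omitting the pool 2 NTB mouse (-0.40, adjusted p = 0.05998) or the pool 3 NTB mouse (-0.42, adjusted p = 0.054), in GMPs defined by cluster (-0.23, adjusted p = 0.0523) and at an Ms4a3 limit of 2.5 (-0.17, adjusted p = 0.143), and the direction turned when the limits were read as UMIs (0.02). BRQ over vehicle gave 0.25 ± 0.09 (adjusted p = 0.0526), which was called with the pool as a block (0.26 ± 0.08, adjusted p = 0.01401), on omitting the pool 2 BRQ mouse (0.30 ± 0.09, adjusted p = 0.0431) and under other settings with adjusted p up to 0.0471. Within GMP clusters the vehicle over NTB difference was not called, at -0.41 ± 0.14 in cluster 0 (adjusted p = 0.0697) and -0.50 ± 0.22 in cluster 3 (adjusted p = 0.366). Of 14 marker lists in GMPs 4 were lower in vehicle than in NTB mice without overlap, those of neutrophils (34012 to 37752 against 47238 to 50670 CPM), macrophages (161 to 174.5 against 272 to 311), basophils (82.4 to 107.5 against 121 to 157) and B progenitors (2.5 to 4.8 against 5.0 to 11.5). Of the macrophage sum Vcam1 gave 155 to 170 CPM in vehicle and 268 to 277.5 in NTB mice. The part of these lists was not tested. In erythroid cells the 2 vehicle mice (47.4 and 48.9 scaled CPM of Runx1) lay below the NTB mice (68.8, 53.5 and 59.1) and the BRQ mice (75.1, 73.4 and 63.0), and neither difference was called (-0.30 ± 0.22, adjusted p = 0.841, and BRQ over vehicle 0.57 ± 0.21, adjusted p = 0.740). In monocytes, HSC/MPP and basophils Runx1 was called in no comparison, with log2 fold changes from -0.14 to 0.09.

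The monocyte factors fell in monocytes of vehicle mice. Irf8 stood at 798.1, 837.0, 823.3 scaled CPM (NTB), 674.5, 522.8, 622.9 (vehicle) and 755.1, 747.9, 626.6 (BRQ). All NTB mice lay above all tumor-bearing mice. The log2 fold change of vehicle over NTB was -0.43 ± 0.11 (607 ± 77.1 against 820 ± 19.8, adjusted p = 0.0289), while BRQ gave 0.22 ± 0.10 over vehicle (adjusted p = 0.275) and -0.21 ± 0.10 over NTB (adjusted p = 0.367). Klf4 stood at 60.1, 96.3, 104.3 (NTB), 67.4, 57.4, 58.2 (vehicle) and 69.5, 70.5, 70.9 (BRQ). The Klf4 groups overlapped through the NTB mouse of pool 1, and the log2 fold change was -0.56 ± 0.14 (adjusted p = 0.0297). These were the 2 calls of vehicle against NTB among 7 members tested, both lower, against 2.38% of all genes (1.57% higher, 0.809% lower), and 2 members did not overlap, against 19.8% of all genes. BRQ over NTB gave -0.39 ± 0.13 for Klf4 (adjusted p = 0.103), which became a call on omitting the pool 1 NTB mouse (-0.51 ± 0.11, adjusted p = 0.023) or all Scrublet-marked cells (-0.43 ± 0.12, adjusted p = 0.04398).

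Both vehicle calls rested on few mice. The Irf8 call was lost when any NTB mouse was omitted, or the vehicle mouse from pool 2 or from pool 3 (log2 fold change -0.44 to -0.33, adjusted p 0.05009 to 0.175). The Klf4 call was lost when the pool 2 or pool 3 mouse was omitted from either group (-0.52 to -0.43, adjusted p 0.0804 to 0.275). With hashtags called by tag ratios neither was called (Irf8 -0.33, Klf4 -0.35). In all, 7 of 17 alternatives lost the Irf8 call and 6 of 17 the Klf4 call. Summed monocyte markers in this class ran from 1377 to 1825 CPM in NTB and from 1212 to 1601 in vehicle mice, and neutrophil markers from 3544 to 9261 and from 1963 to 11278. The highest of the monocyte markers, the coagulation factor gene F13a1, did not overlap, with 591 to 737 CPM in NTB and 448 to 529 in vehicle mice. Of 14 marker lists 2 did not overlap, those of HSC/MPP (58.4 to 125 in NTB and 266 to 429 in vehicle mice, of which Ifitm1 gave 30.1 to 64.7 and 230 to 401) and of macrophages (14.7 to 47.8 and 7.6 to 11.4). Their part in the result was not tested.

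In GMPs Irf8 was scarce, at 3.3, 1.9, 5.3 scaled CPM (NTB), 6.7, 5.0, 2.7 (vehicle) and 7.3, 5.2, 6.6 (BRQ). The groups overlapped and no difference was called (0.52 ± 0.44, 0.27 ± 0.25 and 0.79 ± 0.42). This depended on the gate. With the Ms4a3 limit at 2.5, Irf8 was called in all 3 comparisons, with log2 fold changes of 1.16 ± 0.32 (vehicle over NTB, adjusted p = 0.0151), 0.79 ± 0.21 (BRQ over vehicle, adjusted p = 0.0209) and 1.95 ± 0.29 (BRQ over NTB, adjusted p = 0.00062). At the main limit of 3, summed monocyte markers in GMPs were 52.1 to 65.3 CPM in NTB, 52.0 to 62.3 in vehicle and 93.7 to 143 in BRQ mice. They were not summed at the limit of 2.5, and their part in these values was not tested. At the limit of 2.5 Gata2 was also called for BRQ over vehicle (0.90 ± 0.26, adjusted p = 0.0315). Klf4 was under the filter on low counts in GMPs, with 37 UMIs over 9 mice.

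Of the factors of the other branch, none was called in any class. In erythroid cells Gata1 stood between 142.3 and 181.1 scaled CPM and Gfi1b between 90.3 and 149.5 in all 8 mice, and the groups overlapped. With hashtags called by tag ratios Gfi1b was called lower in BRQ than in NTB mice (-0.74 ± 0.18, adjusted p = 0.0392), against -0.27 ± 0.16 otherwise. Gata1 gave -0.13 ± 0.17 (vehicle over NTB), 0.02 ± 0.16 (BRQ over vehicle) and -0.11 ± 0.13 (BRQ over NTB). Gata2 gave -1.13 ± 0.37 for vehicle over NTB (adjusted p = 0.315), from 13.6 and 31.6 scaled CPM in the 2 vehicle mice and 31.5, 63.5, 34.2 (NTB), which overlap. In basophils, where Gata2 is highest, it stood at 672.1, 566.0, 530.2 (BRQ) and at 920.9 and 850.3 in the 2 NTB mice with at least 10 such cells. These did not overlap, as for 26.3% of all genes, but the fold change of -0.59 ± 0.20 was not called (adjusted p = 0.264). No comparison with vehicle could be made in basophils, since only 1 vehicle mouse had enough of them. At an unadjusted p under 0.05 there was 1 member in basophils, where 0 were called (0.354% of genes, 0.224% higher and 0.131% lower) and DESeq2 called 0.

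Myeloid factors were also counted in erythroid cells, a cluster in which Scrublet marked 11.65% of barcodes, kept here. Irf8 stood at 2.9, 18.7, 5.9 scaled CPM (NTB), 36.1 and 5.7 in the 2 vehicle mice and 23.8, 27.6, 18.5 (BRQ), with log2 fold changes of 1.63 ± 0.51 (vehicle over NTB, adjusted p = 0.255) and 1.46 ± 0.41 (BRQ over NTB, adjusted p = 0.174). Without the filter on low counts both were called (1.61, adjusted p = 0.0124, and 1.45, adjusted p = 0.00254). Spi1 gave 1.04 ± 0.30 (vehicle over NTB, adjusted p = 0.192), with the vehicle mice at 49.7 and 40.2 above the NTB mice at 34.4, 14.9 and 23.5. In this class 0 members were called in each comparison, against 0.331% of genes for vehicle over NTB (all higher), 0% for BRQ over vehicle and 0.392% for BRQ over NTB (0.38% higher, 0.0123% lower), with 3 members at an unadjusted p under 0.05 in each and 0 calls by DESeq2. Mice did not overlap for 5, 2 and 1 members, against 20.8%, 23.7% and 13.8% of genes. Summed monocyte markers in erythroid cells were 13.1 to 33.7 CPM in NTB, 14.0 to 139 in vehicle and 41.8 to 94.8 in BRQ mice, and neutrophil markers 4363 to 22532, 16343 to 25664 and 8690 to 10804. GMP markers did not overlap with NTB mice (2250 to 2935 CPM) in vehicle (3006 to 7108) or in BRQ mice (3237 to 6196). Their part in these values was not tested.

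Other lineage factors and partners of the members were counted in GMPs. Of 40 other lineage factors 32 were tested, and 3 were higher and 6 lower in vehicle than in NTB mice (median log2 fold change -0.24), 13 higher and 2 lower in BRQ than in vehicle mice (median 0.28), and 3 higher and 2 lower in BRQ than in NTB mice (median 0.09). Of all genes tested 11.3%, 13.4% and 6.01% were called in these comparisons. The homeobox gene Hoxa9 rose from 9.0 ± 1.5 scaled CPM in NTB mice to 21.9 ± 3.4 in vehicle (1.14 ± 0.27, adjusted p = 0.00732) and 28.4 ± 6.7 in BRQ mice (1.60 ± 0.25, adjusted p = 0.00054), and Hoxa7 rose by 1.09 ± 0.34 and 1.60 ± 0.31. Hhex was lower in vehicle than in NTB mice (-0.59 ± 0.18) and Ets1 lower in BRQ than in NTB mice (-0.60 ± 0.12). Id2, an inhibitor of basic helix-loop-helix factors, fell from 30.1 ± 6.7 in NTB to 19.5 ± 2.5 in vehicle and 13.7 ± 1.2 in BRQ mice, and was called lower in each of the 3 comparisons. Zeb2, a zinc finger repressor, rose from 56.0 ± 5.0 in vehicle to 101 ± 1.7 in BRQ mice (0.87 ± 0.10, adjusted p = 2.11e-06), Zbtb16 from 2.1 ± 0.8 to 4.2 ± 0.6 (0.91 ± 0.29), and Cebpb, a factor of emergency granulopoiesis, fell by 0.30 on the log2 scale (SE 0.09). The monocyte markers (93.7 to 143 CPM in BRQ, 52.0 to 62.3 in vehicle mice) and the basophil and mast cell markers (179 to 197 and 82.4 to 107.5) were higher without overlap in the same GMPs. Against NTB GMPs, neutrophil markers (47238 to 50670 CPM) were lower in vehicle (34012 to 37752) and BRQ mice (26884 to 38215), as were macrophage markers (272 to 311, against 161 to 174.5 and 65.3 to 196). Vcam1 gave most of the macrophage sum in each group. Basophil markers (121 to 157 in NTB) and B progenitor markers (5.0 to 11.5 in NTB, 2.5 to 4.8 in vehicle) were lower in vehicle mice, and basophil and monocyte markers (52.1 to 65.3 in NTB) were higher in BRQ mice. Their part in these counts was not tested.

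Of 19 cofactors, 0 were called between vehicle and NTB mice, and Lmo2 (0.29 ± 0.09), Ep300 (0.35 ± 0.09) and Cbfa2t3 (0.40 ± 0.09) were higher in BRQ than in vehicle mice. These 3 of 19 are a share near the 13.4% of all genes called there, and so is 1 of 19 near 6.01% for BRQ over NTB, so they are given as single genes and not as a result about cofactors. Lmo2 bridges Gata factors and their partners, Ep300 is a histone acetyltransferase that Myb binds, and Cbfa2t3 is a corepressor. Lmo2 was also the 1 cofactor higher in BRQ than in NTB mice (0.48 ± 0.09, adjusted p = 0.00344). Of 14 genes activated by Gata1 8 could be tested in GMPs, and the iron carrier gene Slc25a37 (0.34 ± 0.08, BRQ over vehicle) was the 1 called in the 3 comparisons, 1 of 8 against 13.4% of all genes.

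The last question was whether opposing factors were found in the same cells. Cells were thinned to 2000 UMIs, and in each mouse the cells with both genes were set against the number expected from the 2 shares if they were independent within the class. Of 270 combinations of 45 pairs and 6 classes, 59 had at least 20 expected cells in all. Their ratios of observed to expected cells ran from 0.822 to 1.3 with a median of 0.999. No pair was at or below 1 in every mouse.

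Above 1 in every mouse were 2 pairs. Myb and Myc met in 339 GMPs against 302 expected (ratio 1.124, from 1.044 to 1.316 over 9 mice). Gata2 and Myb met in 38 erythroid cells against 29.2 expected (1.3, from 1.116 to 2 over 8 mice). For Myb and Myc the ratio was 1.137 in monocytes, 1.198 in erythroid cells and 1.005 in HSC/MPP. The opposed factors Irf8 and Gfi1 met in 48 monocytes against 53.9 expected (0.891), and Irf8 and Klf4 in 138 monocytes against 129 expected (1.069).

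Pairs known for mutual antagonism were rarely seen together at this depth. In GMPs Irf8 and Gfi1 met in 12 cells of all mice against 11.1 expected (ratio 1.082), in 21 against 23.6 at 4000 UMIs per cell (0.89) and in 175 against 168 without thinning (1.042). Gata1 and Spi1 met in 5 erythroid cells against 6.77 expected (0.738), and in 113 against 115 without thinning (0.983), so at 2000 UMIs neither an excess nor a lack could be detected. Gata2 and Spi1 met in 27 HSC/MPP against 24.9 expected (1.086). Group differences in the share of cells with both genes gave two-sided exact permutation p from 0.2 to 1.0 in 9 comparisons, where 3 against 3 mice cannot go below 0.1. The 0.2 was Gata1 and Spi1 in BRQ against vehicle erythroid cells (0.375% against 3.87%), whose mice did not overlap and where 3 against 2 mice cannot go lower. It rests on 1 cell of 89 in 1 BRQ mouse, 0 in the others, and 1 cell of 46 and 1 of 18 in the vehicle mice. These are too few to read a difference. Scrublet-marked barcodes, 11.65% of the erythroid cluster, were kept.

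**Figure D5:**
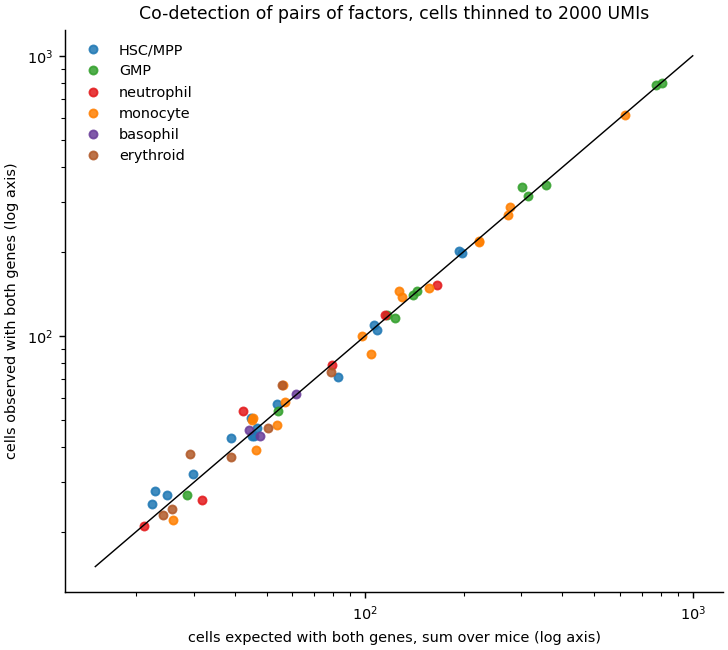
Cells observed with both genes of a pair (vertical) against the cells expected from the separate shares (horizontal), both summed over mice on log axes, for the 59 combinations of pair and class with at least 20 expected cells; colors are classes and the line marks equal numbers. The points follow the line, with Gata2 and Myb in erythroid cells (38 against 29.2) farthest above it in ratio.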

How the data were processed

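Gene and hashtag UMI counts per cell barcode were deposited by the authors as raw counts, 1 matrix per pool, made per the labels with Cell Ranger 6.0.0 on mm10. Cells with over 15% mitochondrial UMIs or outside 500 to 7500 detected genes were dropped. The source gives both limits in transcripts, and reading them as UMIs was an alternative. Hashtags were called per pool with HTODemux (Seurat 5.3.0, quantile 0.99), which removed hashtag doublets. Scrublet in scanpy 1.11.5 marked 3.49% to 5.34% of barcodes, left out only in an alternative. Pools were clustered together (Leiden, leidenalg 0.10.2, resolution 0.8, 2000 variable genes and 30 components, members left out). After the clusters were seen, clusters tied between 2 classes were split once at resolution 0.3, and 1 cluster led by class II MHC genes was left unnamed. The GMP gate took precedence over clusters, 89.53% of GMPs lay in GMP-named clusters, and 3733 cells lay within 0.25 of the limit.

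UMI counts were summed per mouse and class (at least 10 cells) and tested with edgeR 4.0.16 (TMM, filterByExpr, quasi-likelihood, two-sided; R 4.3.3), 1 fit of 9 mice per class, without a block. A comparison needed 2 mice per group. DESeq2 1.42.0, other size factors, no filter, tag ratios, other gates and each mouse left out were alternatives. The code was tested on counts drawn from the same libraries with known changes. Depth per class and mouse was 97934 to 16074010 UMIs, and counting error is not separated from the spread of mice. Pool and group numbers pair the mice, since a pool was 1 library: GMP deviations from group means correlated across genes with a median r of 0.088 within pools and -0.046 between them.

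The members and gene lists were chosen with earlier results of these data known, and the lists come from general knowledge. Named genes are the 10 members, for GMPs the 2 highest and 2 lowest log2 fold changes among calls in each list and comparison, and per member the 3 genes most like it over classes. Gene positions are from GENCODE M21. For co-detection, cells under 2000 UMIs were left out.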

Additional observations from a re-analysis of the deposited data

Results flagged for a closer look

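Whether a difference between groups differed between classes was tested after the data had been seen, in 1 fit of each pair of classes with the mouse as a block (edgeR, Benjamini-Hochberg over all genes). Of 144 such tests over the members, 6 pairs of classes and 3 comparisons, 13 were past 0.05, in fits that called 0.397% to 23.5% of all genes. Differences are log2.

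The rise of Myb in BRQ over vehicle mice was larger in GMPs than in HSC/MPP by 0.46 (SE 0.11, adjusted p = 0.00466, 2.79% of genes called) and larger in monocytes than in HSC/MPP by 0.45 (SE 0.12, adjusted p = 0.0481, 0.397% called). Against NTB mice, the BRQ effect on Myb in monocytes exceeded that in HSC/MPP by 0.51 (adjusted p = 0.00576, 0.841% called) and that in neutrophils by 0.81 (adjusted p = 0.00698, 7.34% called), and the effect in neutrophils less that in GMPs was -0.59 (adjusted p = 0.0279, 9.83% called). For vehicle over NTB mice, the effect on Myb in monocytes exceeded that in neutrophils by 0.58 (adjusted p = 0.035, 19.6% called).

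Spi1 differed in neutrophils from the other myeloid classes. For vehicle over NTB mice its effect in neutrophils exceeded that in GMPs by 1.01 (SE 0.19, adjusted p = 0.000397, in a fit that called 23.5% of genes), and the effect in monocytes less that in neutrophils was -1.08 (SE 0.19, adjusted p = 0.000571, 19.6% of genes). For BRQ over NTB mice these differences were 0.68 (adjusted p = 0.0179, 9.83% called) and -0.70 (adjusted p = 0.0225, 7.34% called).

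The effect on Gfi1 in vehicle over NTB mice in neutrophils less that in GMPs was -0.74 (adjusted p = 0.0268, 23.5% called). For Runx1, vehicle over NTB in monocytes exceeded neutrophils by 0.66 (adjusted p = 0.0366, 19.6% called), and BRQ over vehicle in monocytes less that in GMPs was -0.35 (adjusted p = 0.0497, 1.18% called). Neutrophil clusters were shared unequally between the groups, and that part of these differences was not tested.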

How the results depend on the processing

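Counts of called members moved by over 1.5 times under few settings. Vehicle over NTB fell from 7 to 4 with tag ratios, to 4 with the limits read as UMIs and to 4 with GMP and neutrophil clusters tested one at a time, an alternative added after seeing the data, and lay between 2 and 7 with 1 mouse left out (2 without the NTB mouse of pool 2, 3 without the NTB or the vehicle mouse of pool 3). BRQ over vehicle went from 2 to 0 with limits read as UMIs and to 5 at an Ms4a3 limit of 2.5, and lay between 1 and 3 with 1 mouse left out (1 without the vehicle mouse of pool 1). With limits read as UMIs only 4 mice had enough monocytes, and the calls in monocytes were not recomputed. Their absence from these counts is no lost call. BRQ over NTB went from 3 to 5 without a filter on low counts and to 5 at the limit of 2.5, and lay between 2 and 4 with 1 mouse left out. Of the 6 classes compared, the one with the highest level was the same for all 10 members except with limits read as UMIs (5 of 10) and, for Myb, with tag ratios. Classes with under 3 mice were left out of this ranking. With limits read as UMIs, members that had led in erythroid cells or basophils led elsewhere, as Gata1 in HSC/MPP at 7.18 CPM. With the pool as replicate block the counts were 7, 3 and 3, the added call being Runx1 in GMPs. Of 212 recomputed values of the 12 calls, 180 kept the call, 31 lost it and 1 reversed (Runx1 in GMPs, 0.02, with limits read as UMIs). In neutrophil cluster 1 alone the sign changed for Gfi1 (0.37, SE 0.98), Myb (1.27) and Runx1 (1.21), which rest on 0 to 3 UMIs per NTB mouse and show no direction, and Spi1 for BRQ over NTB was about 0 (-0.01). The causes were not tested, beyond the fewer cells kept by UMI limits and the fewer mice of the omissions. Some values rest on few counts, basophils on 122 cells and Gata1 in GMPs on 40 UMIs.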

Other observations

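Members were also counted in classes outside the comparisons, as mean plain CPM over mice with at least 10 cells. Megakaryocyte-like cells held 87.0 CPM of Gata1, 88.9 of Gfi1b, 164 of Gata2 and 246 of Runx1, and 13.2 of Spi1. Macrophage-like cells held 363 CPM of Irf8 but 3.84 of Klf4, where monocytes held both. B progenitors held 174 CPM of Irf8 and 774 of Myb, against 15.1 and 61.1 in B cells. Eosinophil-like cells, a shallow cluster with a median of 1124 UMIs in which 30.56% of barcodes were hashtag doublets, held 272 CPM of Gfi1 and 1318 of Myb.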
